A study of Saccharomyces cerevisiae with 8 samples.

Results

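The mitochondrial ATP synthase is a rotary enzyme of the inner membrane that makes ATP from ADP and phosphate with the energy of protons flowing back into the matrix. Its F1 head carries the catalytic sites, a central stalk turns inside the head, a peripheral stalk holds the head still, and membrane subunits carry the protons and join enzymes into dimers. In baker's yeast most subunits are encoded in the nucleus and 3 in mitochondrial DNA, and cells that ferment glucose make less of the enzyme than cells that respire. The 10 nuclear genes described here were found by their names in the deposited gene table, out of 6532 entries in the count table, and all 10 were measured well enough to be tested. ATP1 (alpha), ATP2 (beta, catalytic) and ATP3 (gamma, central stalk) encode F1 subunits. ATP4 (b), ATP5 (OSCP), ATP7 (d) and ATP14 (h) encode the peripheral stalk, and ATP17 (f), ATP18 (i/j) and ATP20 (g, a dimer contact) encode membrane subunits.

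The yeast was strain BY4741 (MATa his3Δ1 leu2Δ0 met15Δ0 ura3Δ0) in every group. Log phase cells were taken from liquid culture, and Day 2, Day 3 and Day 4 cells came from colonies grown from such cells on solid media for that many days, with 2 libraries per group and 8 in all. The study set out to ask whether gene expression and the choice of poly(A) site are linked, and site choice was not analysed here. Total RNA was read by PAT-seq, which sequences the 3′ end of each mRNA with part of its poly(A) tail, so read numbers are compared between libraries and not between genes. Medium, growth form and time differed together between the colonies and Log phase, so their parts cannot be told apart, and bulk RNA does not show whether all cells or some of them changed. The labels do not say that the 2 libraries of a group came from separate cultures, so p-values measure the spread between libraries, which may be technical.

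Libraries held 6203115 to 8441949 counts. MET17, deleted in the strain as met15, had 0 counts in every library, LEU2 and URA3 had at most 10, and the MATa gene STE2 had 1869 to 4052. The 10 genes took 0.299% and 0.313% of all counts in the Log phase libraries, 0.607% and 0.604% on Day 2, 1.32% and 1.29% on Day 3, and 1.15% and 1.14% on Day 4. Levels below are CPM, counts scaled to a common library size with TMM factors. Scaling to total counts instead moved the median gene by 0.38, 0.40 and 0.44 on the log2 scale for Day 2, Day 3 and Day 4 against Log phase, and fold changes here are relative to the median gene.

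ATP1 lies on chromosome II at 37053 to 38690, ATP3 on II at 315575 to 316510, and ATP2 on X at 647607 to 649142. The stalk genes ATP4, ATP5 and ATP7 lie on XVI at 408010 to 408744, IV at 1058176 to 1058814 and XI at 407465 to 407989. ATP17 lies on IV at 1228611 to 1228916, ATP18 on XIII at 103983 to 104162 and ATP20 on XVI at 599870 to 600217. These positions are the same in the deposited gene table and in the R64 reference. ATP14 (XII, 721999 to 722373 in R64) was counted by the authors as 1 entry with its overlapping neighbour YLR294C, so its reads are those of both. For ATP2 and ATP17 the count table held 45.8% and 8.80% of the reads that the gene table gives them, and for the other members 94.5% or more. The levels of ATP2 and ATP17 are therefore uncertain, and their fold changes in tailed reads are given beside those against Log phase.

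Genes of respiration in yeast are activated by the Hap2/3/4/5 complex, which binds CCAAT boxes, and Puf3 binds TGTANATA in the 3′ ends of many mRNAs for mitochondrial proteins. CCAAT stood on either strand within 500 bases before the start codon in 10 of 10 members and in 62.4% of 6000 yeast genes. Most genes thus hold it on 1 strand or the other. On the coding strand alone it stood in 9 of 10 members, all but ATP20, and in 38.6% of genes. The longer ACCAATNA, which contains CCAAT and was searched after the data had been seen, stood in 5 of 10 members and 8.60% of genes. TGTANATA stood on the coding strand within 200 bases after the stop codon in 2 of 10 members and 14.1% of 6002 genes. The sites of both longer motifs are shown because they are where members differ in sequence. Each is 30 bases of R64, written 5′ to 3′ on the coding strand with the motif in capitals.
ATP3, chrII:315368-315397, plus strand: cgtgatggagaACCAATGAgcggcgagtaa
ATP4, chrXVI:408916-408945, minus strand: atcaatattgaACCAATCAcgacgcttttt
ATP7, chrXI:408149-408178, minus strand: gtaaaagatacACCAATTAccacttgctgc
ATP14, chrXII:722553-722582, minus strand: gccatacacgaACCAATTAtgcatcataaa
ATP17, chrIV:1228370-1228399, plus strand: ttacggagagaACCAATCAtatcgaaggat
ATP1, after the stop codon, chrII:38729-38758, plus strand: tcaaaaagaaaTGTAAATAtagaaatttta
ATP18, after the stop codon, chrXIII:103901-103930, minus strand: ctacatatgttTGTATATAgaaatatattc
The last base of the ACCAATNA sites lay 171 (ATP7) to 223 (ATP17) bases before the start codon, and all were on the coding strand. A match is a description of these letters and not a shown binding site.

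Transcripts of the ATP synthase were more abundant in colonies than in Log phase, and most abundant on Day 3 or Day 4. On Day 2, 8 of the 10 genes were higher than in Log phase, where 28.3% of the 5930 genes tested were called higher (edgeR's quasi-likelihood test, adjusted p under 0.05). On Day 3 all 10 were higher against 34.5% of genes, and on Day 4 all 10 against 37.2%. The members' median log2 fold change was 0.78 on Day 2, 1.98 on Day 3 and 1.46 on Day 4, beside 0.02, 0.01 and 0.01 over all genes tested.

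**Figure D1:**
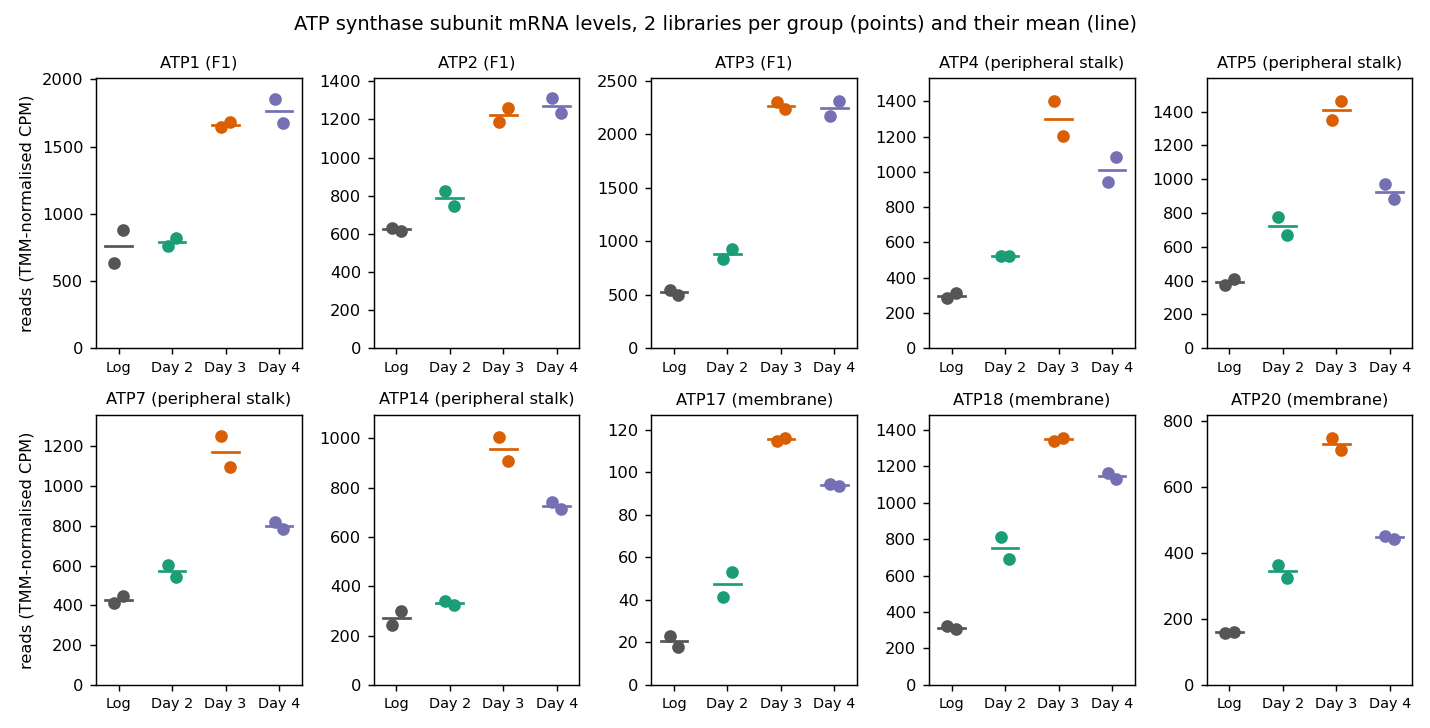
TMM-normalised CPM (y axis, from 0, on its own scale for each gene) of the 10 subunit genes in Log phase, Day 2, Day 3 and Day 4 (x axis), with 1 point per library and a line at the mean of 2. Every gene is higher on Day 3 than on Day 2, and on Day 4 the points of the 3 F1 genes overlap their Day 3 points while those of the other 7 lie below theirs.

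The F1 genes differed from each other early. ATP1, the alpha subunit, had 637 and 877 CPM in Log phase, 757 and 818 on Day 2, 1644 and 1682 on Day 3, and 1850.4 and 1678 on Day 4. Its Day 2 libraries lay between the Log phase libraries, and the fold change was not called (log2 0.06 ± 0.15 SE, adjusted p = 0.765, n = 2 each by edgeR), whereas Day 3 and Day 4 lay wholly above. ATP3, the gamma subunit that turns in the head, had 547 and 497 CPM in Log phase, 837 and 931 on Day 2, 2302 and 2237 on Day 3, and 2175 and 2312 on Day 4. No colony library of ATP3 overlapped Log phase, and its log2 fold changes were 0.76, 2.12 and 2.10 on Day 2, Day 3 and Day 4. ATP2, which carries the catalytic sites, had 629.9 and 617 CPM in Log phase, 827 and 744 on Day 2, 1186 and 1260.4 on Day 3, and 1313 and 1233 on Day 4. Its log2 fold change was 0.33 ± 0.14 on Day 2 (adjusted p = 0.0405 by edgeR), a call lost with other size factors (adjusted p = 0.0570) and when any of 5 libraries was left out, and 0.97 and 1.03 on Day 3 and Day 4. In tailed reads alone ATP2 gave 0.40, 1.00 and 1.04.

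All 4 peripheral stalk genes peaked on Day 3. ATP4, subunit b, had 285 and 310.3 CPM in Log phase, 520.0 and 524 on Day 2, 1401 and 1203 on Day 3, and 943 and 1082 on Day 4. ATP5, the OSCP subunit that ties the stalk to the head, had 371 and 408 CPM in Log phase, 775 and 672 on Day 2, 1350.4 and 1465 on Day 3, and 970.4 and 881 on Day 4. ATP7, subunit d, had 411 and 446 CPM in Log phase, 605 and 543 on Day 2, 1251 and 1097 on Day 3, and 818 and 783 on Day 4. In each of these genes every colony library was above both Log phase libraries, and both Day 3 libraries were above all others. Log2 fold changes on Day 3 were 2.13 for ATP4, 1.85 for ATP5 and 1.45 for ATP7. On Day 2 ATP7 was at 0.42 (adjusted p = 0.0138 by edgeR), and at 0.36 without Log phase replicate 1, where the call was lost. The ATP14 entry had 244 and 298 CPM in Log phase, 340.1 and 323 on Day 2, 1004 and 906 on Day 3, and 740.0 and 713 on Day 4. Its Day 2 libraries lay above Log phase but the difference was not called (0.29 ± 0.14, adjusted p = 0.0940 by edgeR); with scaling to total counts both ATP1 (0.44, adjusted p = 0.0133) and ATP14 (0.67, adjusted p = 0.000347) were called higher on Day 2.

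By counts the 3 membrane subunit genes had the largest Day 2 fold changes among the members, an order that does not hold in tailed reads (1.41 for ATP18 and 1.31 for ATP20, against 1.44 for ATP4 and a higher value for ATP5). ATP18 had 321 and 305 CPM in Log phase, 814 and 692 on Day 2, 1339 and 1359 on Day 3, and 1162 and 1133 on Day 4. ATP20, whose protein helps enzymes pair into dimers, had 158 and 161 CPM in Log phase, 363 and 325 on Day 2, 749 and 712 on Day 3, and 452 and 442 on Day 4. The 4 groups did not overlap in either gene, and log2 fold changes on Day 2 were 1.27 ± 0.14 for ATP18 and 1.11 ± 0.14 for ATP20. ATP17, with the fewest counts (114 to 1047 per library), had 23.0 and 18.0 CPM in Log phase, 41.4 and 53.3 on Day 2, 115 and 116 on Day 3, and 94.5 and 93.4 on Day 4. Its log2 fold changes by counts were 1.21, 2.49 and 2.19 on Day 2, Day 3 and Day 4, against 0.59, 2.18 and 1.89 by tailed reads, so its Day 2 value depends on which reads are used.

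**Figure D2:**
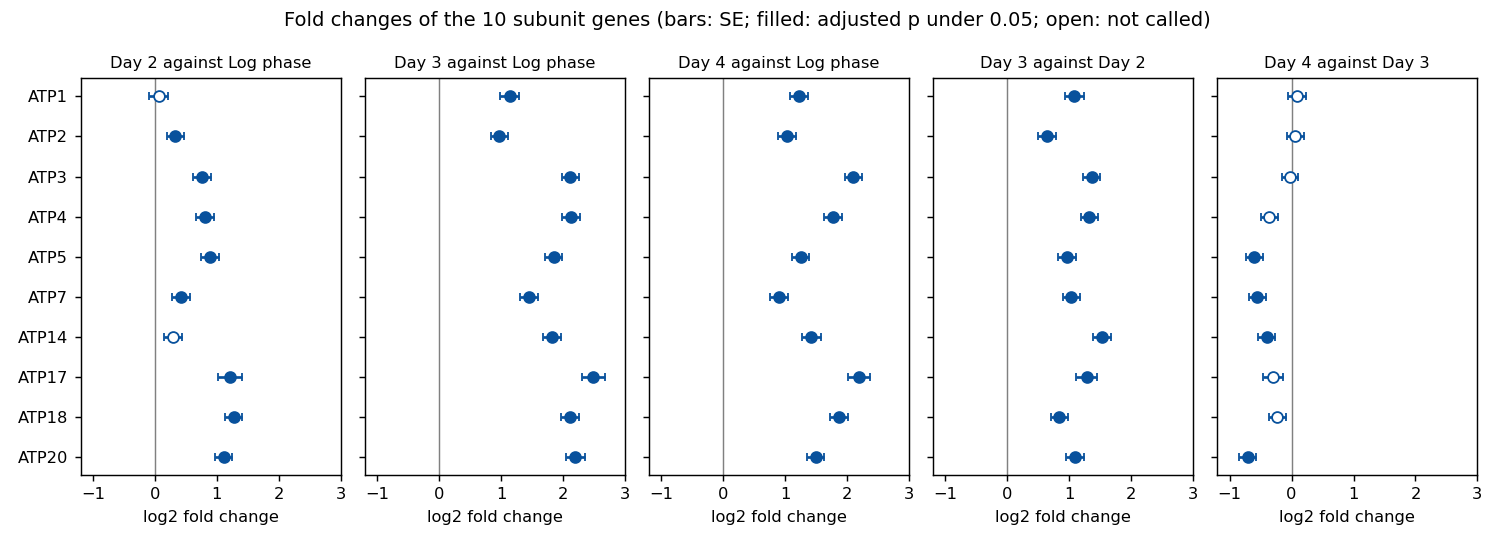
Log2 fold changes (x axis) of the 10 genes (y axis, F1 genes at the top, then stalk, then membrane) in 5 comparisons, with bars for the SE, filled points where the adjusted p was under 0.05 and open points where it was not. Day 3 values run from 0.97 for ATP2 to 2.49 for ATP17 against Log phase. In tailed reads, which are not drawn, they run from 1.00 for ATP2 to 2.50 for ATP4. Against Day 3 the Day 4 values of ATP1, ATP2 and ATP3 lie at 0.09, 0.06 and -0.02 (0.03 for ATP3 with scaling to total counts).

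Between colony days, all 10 genes were higher on Day 3 than on Day 2 (24.2% of all genes were called higher), with log2 fold changes from 0.64 for ATP2 to 1.53 for ATP14. On Day 4 all 10 were also called higher than on Day 2, against 30.5% of genes. ATP5 (0.36), ATP20 (0.38) and ATP7 (0.48) had the smallest log2 fold changes there. In tailed reads ATP5 (0.14, adjusted p = 0.449 by edgeR) and ATP7 (0.31, adjusted p = 0.0723) were not called, and the count was 8 without Day 2 replicate 2, 7 without Day 4 replicate 1 and 8 without Day 4 replicate 2. Between Day 4 and Day 3 the F1 genes and the others had different values. ATP20 (-0.71 ± 0.14, adjusted p = 0.000729), ATP5 (-0.60 ± 0.14, adjusted p = 0.00291), ATP7 (-0.55 ± 0.14, adjusted p = 0.00556) and ATP14 (-0.40 ± 0.14, adjusted p = 0.0439) were lower on Day 4 by edgeR, where 14.6% of genes were called lower. The ATP14 call was lost with scaling to total counts (adjusted p = 0.0652) and in tailed reads (adjusted p = 0.0632). ATP4 (-0.36, adjusted p = 0.0607), ATP17 (-0.30, adjusted p = 0.191) and ATP18 (-0.23, adjusted p = 0.224) were not called, although their Day 4 libraries lay below both Day 3 libraries. The Day 4 libraries of ATP1, ATP2 and ATP3 overlapped those of Day 3, with ATP3 at -0.02 here and 0.03 with scaling to total counts. This count rests on single libraries: it was 2 without Day 3 replicate 1, 2 without Day 4 replicate 1 and 1 without Day 4 replicate 2. The split into F1 and other genes was not planned, and the difference in fold change between them was not tested.

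The makeup of the members' reads restates the same counts as shares, so it is no separate evidence of a difference between F1 and the other genes. Shares of all reads hold only part of the reads of ATP2 and ATP17. F1 genes gave 50.01% and 50.56% of the members' reads in Log phase, 41.2% and 44.3% on Day 2, 41.6% and 43.0% on Day 3, and 50.7% and 50.5% on Day 4. Stalk genes gave 36.1% and 37.1%, 38.1% and 36.6%, 40.6% and 38.8%, and 33.0% and 33.4% in the same order. In all reads the F1 share on Day 4 was above both Day 3 libraries and near that of Log phase, and the stalk share was lowest on Day 4. In tailed reads, where ATP17 and ATP2 are counted more fully, the F1 share was 56.1% and 58.9% in Log phase, 45.96% and 50.05% on Day 2, 44.0% and 46.2% on Day 3, and 53.5% and 53.0% on Day 4. There too Day 4 lay above Day 3, but below Log phase, and the stalk share on Day 4 (26.3% and 26.3%) lay beside that of Log phase (26.4% and 26.1%).

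**Figure D3:**
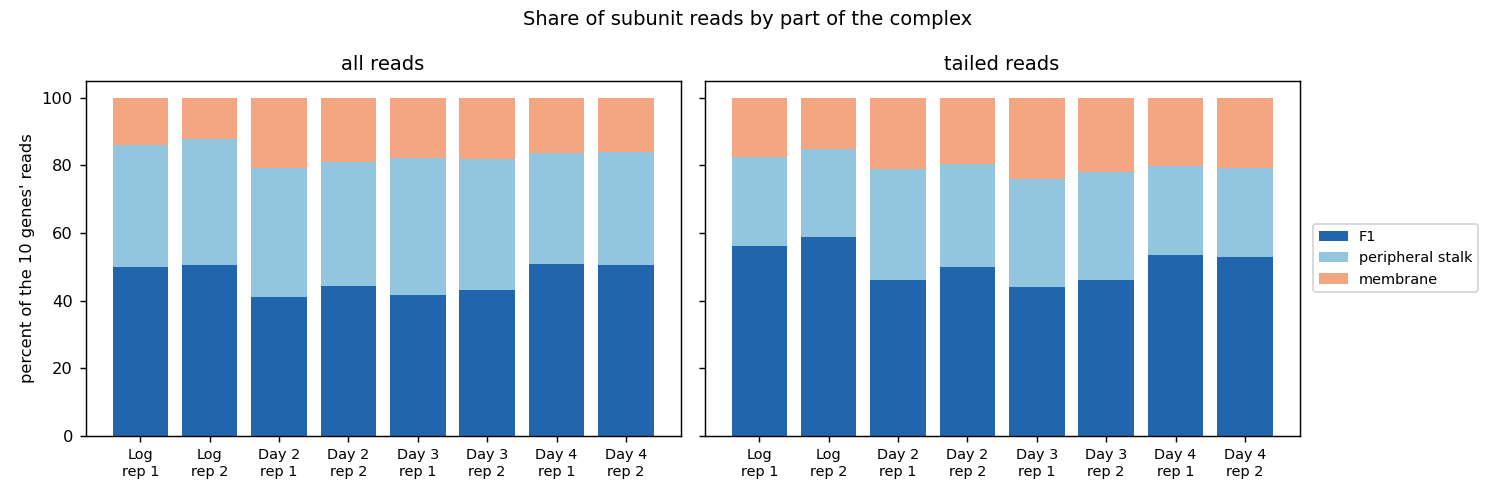
Percent of the 10 genes' reads (y axis) from F1, peripheral stalk and membrane genes in each library (x axis), for all reads on the left and tailed reads on the right. The F1 part is larger in both Day 4 libraries (50.7% and 50.5% of all reads) than in both Day 3 libraries (41.6% and 43.0%).

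The other nuclear subunit genes were also more abundant in colonies. ATP15 and ATP16, small central stalk subunits, and ATP19 and TIM11, membrane subunits k and e, were all higher than in Log phase on each day. On Day 2, Day 3 and Day 4, 28.3%, 34.5% and 37.2% of all genes were called higher. These subunit genes had log2 fold changes of 1.88 to 2.45 on Day 3. Against Day 3, ATP19 was lower on Day 4 (-0.50, adjusted p = 0.0118 by edgeR) and ATP15 was at -0.00 and ATP16 at -0.13, both not called. TIM11 was not called either, although its Day 4 libraries (1056 and 1052 CPM) lay below those of Day 3 (1358 and 1292). In tailed reads it was at -0.65. The mitochondrial genes ATP6, ATP8 and OLI1, which encode the proton channel, subunit 8 and the c ring, had 0 to 8 counts per library and were not tested. In general yeast mitochondrial mRNAs lack the poly(A) tails on which the method depends, but whether this lies behind the low counts was not tested. Of the 25, 18 and 24 pooled reads of ATP6, ATP8 and OLI1, 56.0%, 94.4% and 95.8% had a tail.

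Genes of proteins that bind and restrain the enzyme had larger fold changes than any member on each day, a difference that was not tested. INH1, which blocks ATP hydrolysis when the proton gradient is lost, averaged 587 ± 55.9, 1381 ± 51.6 and 1293 ± 2.29 CPM on Day 2, Day 3 and Day 4, against 161 ± 7.62 in Log phase (SD, n = 2 each). Its log2 fold changes were 1.87, 3.10 and 3.01. Its paralog STF1 gave 3.06, 3.51 and 3.46, and STF2, a stabilising factor, gave 2.71, 3.49 and 2.43. The 3 genes were called higher on each day, where 28.3%, 34.5% and 37.2% of all genes were on Day 2, Day 3 and Day 4. STF2 was lower on Day 4 than on Day 3 (-1.06, adjusted p = 0.000665 by edgeR).

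Of 14 assembly and expression factors, 7 were higher and 0 lower on Day 2, 8 and 0 on Day 3, and 7 and 2 on Day 4, with medians of 0.57, 0.77 and 0.60. Of all genes tested, 28.3%, 34.5% and 37.2% were called higher on Day 2, Day 3 and Day 4, and 28.2%, 34.4% and 37.0% lower. The 2 lower on Day 4 were ATP11, a chaperone that helps build F1 (-1.13, adjusted p = 4.74e-07), and FMC1, which acts in F1 assembly (-0.71, adjusted p = 0.0455), both by edgeR. NCA3, which acts in expression of ATP6 and ATP8, was the highest on Day 4, at 3.26 by counts and 4.09 by tailed reads. The count table held 67.6% of its gene table reads. Of the carriers that bring ADP and phosphate to the enzyme, AAC1 gave 3.00, 4.03 and 4.22 and the phosphate carrier MIR1 gave 0.68, 1.78 and 2.59 on Day 2, Day 3 and Day 4. PIC2, another phosphate carrier, averaged 28.6 CPM in Log phase, and 159.5, 172 and 113 CPM on Day 2, Day 3 and Day 4. AAC3, an ADP/ATP carrier used without oxygen, was not called on Day 2 (0.07) and was lower on Day 3 (-1.91) and Day 4 (-4.06). The size of its Day 4 value is uncertain, since it rests on 4 and 6 counts, against 74 and 55 in Log phase. PET9, the main ADP/ATP carrier, gave 0.86, 1.41 and 2.01 by counts and 0.47, 0.91 and 0.93 by tailed reads, and the count table held 35.8% of its gene table reads.

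HAP4, the activating subunit of the CCAAT-binding complex, averaged 28.1, 92.5 and 159 CPM on Day 2, Day 3 and Day 4, against 4.12 in Log phase. Its log2 fold changes were 2.76, 4.48 and 5.26 by counts and 1.14, 2.56 and 2.64 by tailed reads, and the count table held 18.9% of its gene table reads. By counts HAP2 and HAP5 were higher on each day, and HAP3 on Day 2 and Day 3. In tailed reads HAP3 had log2 fold changes of 0.06 on Day 2 and -0.06 on Day 3, so its rise depends on which reads are used. The count table held 81.8% of the gene table reads of HAP2, 74.7% of HAP5 and 65.3% of PUF3. PUF3 was not called on Day 2 (-0.08) or Day 3 (-0.02) and was higher on Day 4 (1.03, adjusted p = 4.34e-06 by edgeR).

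Set beside the respiratory complexes that feed it with protons, the ATP synthase had smaller median fold changes. Median log2 fold changes on Day 2, Day 3 and Day 4 against Log phase were 0.78, 1.98 and 1.46 for the 10 members, 1.47, 2.62 and 2.58 for 9 nuclear cytochrome bc1 genes, and 1.64, 3.04 and 2.90 for 9 nuclear cytochrome c oxidase genes. The ranges overlapped: on Day 3 bc1 genes ran from 1.60 for QCR2 to 4.26 for QCR9, and oxidase genes from 2.52 for COX6 to 6.16 for COX26. Some of these levels are uncertain, since the count table held 29.1% of the gene table reads of COX6, 34.2% of COX8, 0.923% of RIP1 and 128% of QCR9. In tailed reads the Day 3 values ran from 1.74 for QCR2 to 4.26 for QCR9 and from 2.22 for COX9 to 6.17 for COX26. The tailed read medians on Day 2, Day 3 and Day 4 were 0.84, 2.09 and 1.72 for the members, 1.61, 3.02 and 2.58 for bc1, and 1.54, 2.99 and 2.85 for the oxidase. The vacuolar ATPase, a related rotary pump that spends ATP to acidify the vacuole, had 13 of 15 genes lower on Day 3 and 14 of 15 on Day 4, where 34.4% and 37.0% of all genes were called lower, with medians of -0.65 and -1.27. VMA7 was higher on both days, at 1.26 and 1.29. On Day 2 its genes were mixed, with 5 lower and 2 higher and a median of -0.17, where 28.2% of all genes were called lower. With scaling to total counts 1 was lower and 5 higher on Day 2, 6 and 2 on Day 3, and 13 and 1 on Day 4, and its medians were 0.21, -0.25 and -0.83, so its Day 2 direction depends on the scaling, while those of the members were 1.17, 2.38 and 1.90. The difference between complexes was not tested.

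**Figure D4:**
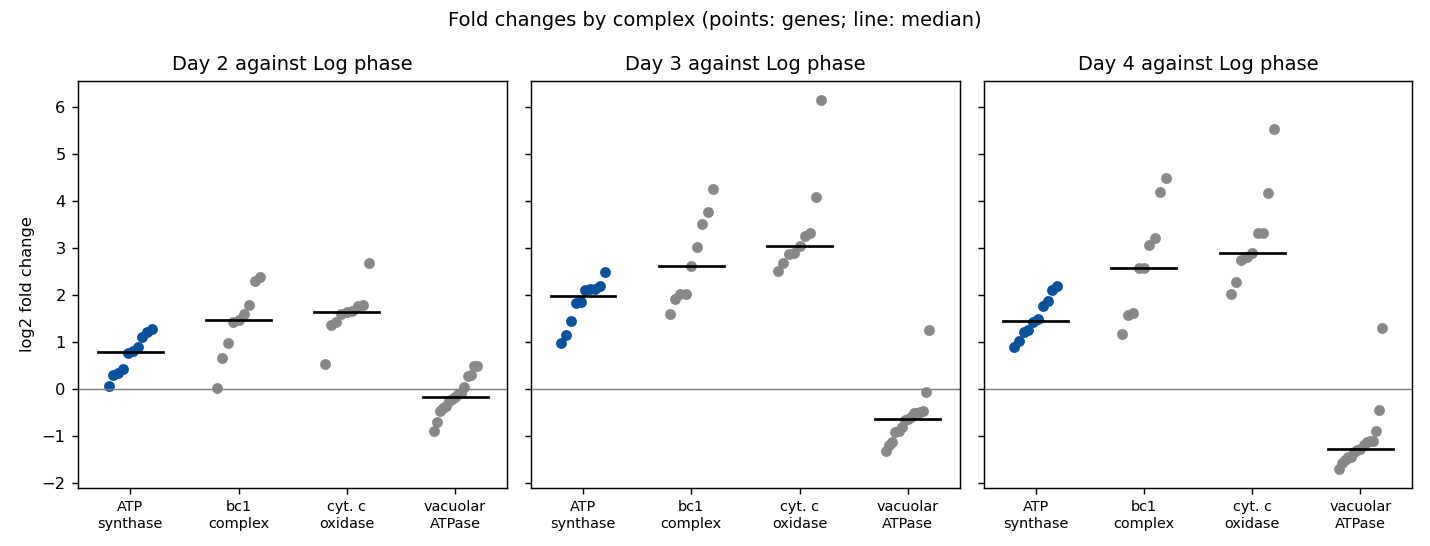
Log2 fold changes against Log phase (y axis) of the genes of 4 complexes (x axis) on Day 2, Day 3 and Day 4, with 1 point per gene and a line at the median. The ATP synthase points lie above 0 and mostly below those of bc1 and cytochrome c oxidase, and all but 1 vacuolar ATPase point lies below 0 on Day 3 and Day 4.

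Mean poly(A) tails of the members ran from 12.6 to 26.7 nt over the 8 libraries. ATP7 had the longest, at 24.0 to 26.7 nt, and no colony library of it had shorter tails than Log phase. ATP18 had tails of 17.9 and 17.6 nt in Log phase, 17.9 and 17.1 nt on Day 2, 14.3 and 15.2 nt on Day 3, and 13.0 and 12.6 nt on Day 4. Its Day 4 tails were shorter than in Log phase by limma (-4.92 ± 0.69 nt, adjusted p = 0.00877), where 8.61% of 5388 genes were called shorter. It was the only member called in that comparison, and the call was lost without Log phase replicate 1 (adjusted p = 0.0775) or Day 4 replicate 2 (adjusted p = 0.0648). No member was called by limma on Day 2 or Day 3 against Log phase, where 1.19% and 2.25% of genes were called. At an unadjusted p under 0.05 there was 1 member on each day, ATP2 on Day 2 and ATP18 on Day 3. Over all 5388 genes there were 1223 on Day 2 and 1170 on Day 3. On Day 4 against Log phase there were 3 members, ATP7 (longer), ATP17 and ATP18 (both shorter), and 1556 over all genes.

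Against Day 2, 3 members had shorter tails on Day 3 by limma, ATP1 (-2.43 nt), ATP2 (-2.96 nt) and ATP18 (-2.81 nt), where 21.8% of genes were called shorter. On Day 4, 5 members were shorter than on Day 2, ATP1 (-2.38 nt), ATP2 (-3.00 nt), ATP3 (-2.12 nt), ATP17 (-3.24 nt) and ATP18 (-4.69 nt), where 32.0% of genes were. ATP17 had 14.9 and 15.3 nt on Day 4, against 18.7 and 18.0 nt on Day 2. The members' median differences, -1.90 nt for Day 3 and -2.02 nt for Day 4 against Day 2, lay near those of all genes, -1.95 and -2.17 nt. ATP20 went the other way without being called, with 17.9 and 17.4 nt on Day 4, against 16.5 and 16.1 nt on Day 2 (1.35 ± 0.72 nt, adjusted p = 0.171 by limma). Leaving out single libraries moved the Day 3 count between 0 and 2 and the Day 4 count between 1 and 4. Between Day 4 and Day 3 limma called 0% of 5388 genes (439 at an unadjusted p under 0.05, of the members 1, ATP18).

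**Figure D5:**
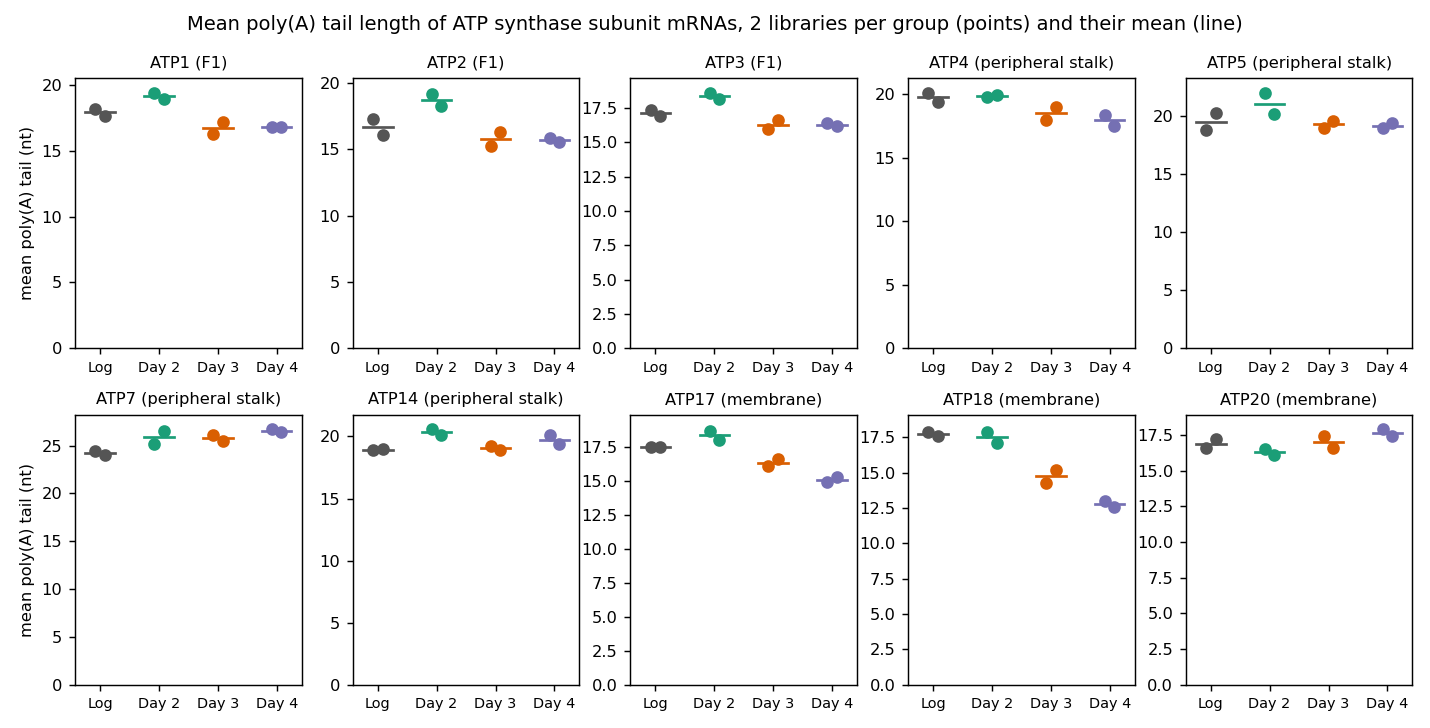
Mean poly(A) tail length in nt (y axis, from 0) of the 10 subunit mRNAs in Log phase, Day 2, Day 3 and Day 4 (x axis), with 1 point per library and a line at the mean of 2. ATP18 lies at 13.0 and 12.6 nt on Day 4, against 17.9 and 17.6 nt in Log phase, and ATP7 lies between 24.0 and 26.7 nt throughout.

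The share of reads with a tail could be taken for the 8 members whose counts match the gene table, and it is given without a test. ATP5 had 35.7% and 35.6% tailed reads in Log phase, 57.9% and 50.3% on Day 2, 38.4% and 41.8% on Day 3, and 41.5% and 40.1% on Day 4. ATP4 had 19.6% and 21.4%, 35.7% and 27.9%, 22.2% and 25.3%, and 26.4% and 25.5% in the same order. Both were highest on Day 2, as was the median over 3648 genes. That median was 40.6% and 39.0% in Log phase, 44.3% and 40.7% on Day 2, and 37.5% and 37.7% on Day 3. Pooled over the reads of 4613 genes counted alike, the share was 42.2% and 40.6% in Log phase and 40.9% and 39.3% on Day 2. The pooled share was therefore not higher on Day 2. For Day 2 against Log phase the median difference was 6.43 points for the members and 2.20 for all genes. For Day 3 against Day 2 it was -8.89 and -4.18 points. Day 2 lay wholly above Log phase in 4 of 8 members (36.6% of 3648 genes) and below it in 1, the ATP14 entry (19.9%). Day 3 lay wholly below Day 2 in 5 of 8 (47.7% of genes).

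Among the members, the profile over the 8 libraries was most like the members' mean for ATP4 (Pearson r = 0.996 on log2 CPM) and least for ATP1 (r = 0.913). Each member is part of that mean, which raises its r. Among the 50 genes nearest to each member, ATP7 had the most other members, 4, and ATP1, ATP2, ATP3 and ATP18 had 0. The pair least alike was ATP1 and ATP20 (r = 0.795) and the pair most alike ATP5 and ATP20 (r = 0.995). The genes outside the 10 nearest to the members' mean were YGL188C (0.997, annotated as a dubious reading frame), COX26 (0.997), PEX15 (0.995, peroxisome formation), QCR6, QCR10 and HSP30 (0.994 each), MRX3 (0.993) and IAI11 (0.992). COX26, QCR6 and QCR10 belong to the respiratory complexes. These values describe 8 libraries in 4 groups that share depth and scaling, and by Spearman's rank 0 of the 8 genes were the same.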

How the data were processed

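PAT-seq libraries of total RNA, 75-base SOLiD reads per the labels' protocols, were analysed from the authors' tables. The authors deposited read counts per gene, counts of tailed reads, mean tail length in nt, and a gene table of positions, pooled reads and the tailed fraction. For the aligner and counting rules, "not given in the sources used here" applies, as it does for the build. Positions were compared with R64, where 99.8% of 5813 entries agreed exactly.

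Counts were tested with edgeR 4.0.16 (TMM, low counts filtered, quasi-likelihood test, 1 mean per group, 5930 genes) and tails with limma 3.58.1 (no library under 10 tailed reads, weighted by tailed reads to a cap of 100, 5388 genes), in R 4.3.3, adjusted by Benjamini-Hochberg over all genes at 0.05. DESeq2 1.42.0 was an alternative. Both fits were tested on simulated data. Tail estimates there were centred on the simulated differences with the stated error, but most differences of a few nt were not called, so a member that was not called is not shown to keep its tail length. Tailed shares use genes whose counts lie within 10% of the gene table's reads.

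Every member is named, genes of other lists by their list, and outside them the 8 genes nearest the members' mean. The members and lists were chosen with earlier results of these data known. Replicate numbers did not pair libraries (correlations of deviations from -0.0349 to 0.00554 for expression).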

Additional observations from a re-analysis of the deposited data

How the results depend on the processing

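No member's fold change or tail difference that was called changed direction in the settings tried, but values near 0 that were not called did. For Day 4 against Day 3, ATP3 (-0.02) was at 0.03 with total-count scaling and 0.06 in tailed reads. With other size factors, total-count scaling, no filter, DESeq2, tailed reads or a replicate block, 348 of 360 expression values kept direction and call, 7 lost the call, 3 gained it and 2 changed sign, and of 480 values with 1 library left out 453 kept both. Leaving out 1 library took ATP1 on Day 2 against Log phase over -0.15 to 0.31 and ATP3 on Day 4 against Day 3 over -0.06 to 0.02. The tail tests moved more. Tail calls over all genes for Day 2 against Log phase numbered 64, and 143 with at least 30 tailed reads, 0 without weights and 0 with the replicate block. For Day 3 against Log phase they numbered 121, and 205, 28 and 1 in the same settings. With at least 30 reads, 1 member was shorter on Day 3 and 2 on Day 4 against Log phase, and with the replicate block 3 members were shorter on Day 4 than on Day 2. The cause was not tested. Leaving out single libraries gave 1 to 5 members lower on Day 4 than on Day 3 and 608 to 2046 genes called (1570 with all). For tails it gave 0 to 1 members shorter on Day 4 against Log phase, 0 to 2 on Day 3 against Day 2 and 1 to 4 on Day 4 against Day 2. Tail differences in nt that changed sign ranged, against Log phase, over -0.24 to 0.47 for ATP4 and -0.62 to 0.17 for ATP18 on Day 2, over -1.06 to 0.48 for ATP5, -0.05 to 0.30 for ATP14 and -0.36 to 0.45 for ATP20 on Day 3, and over -1.10 to 0.44 for ATP5 on Day 4. Against Day 2, ATP7 ranged over -0.74 to 0.60 on Day 3. For Day 4 against Day 3 the ranges were -0.42 to 0.52 for ATP1, -0.53 to 0.46 for ATP2, -0.31 to 0.28 for ATP3 and -0.33 to 0.25 for ATP5. Tail calls over all genes ranged, for Day 2, Day 3 and Day 4 against Log phase, over 0 to 0, 0 to 114 and 0 to 568 (528 with all), and against Day 2 over 70 to 939 for Day 3 (1187 with all) and 685 to 1654 for Day 4 (1774 with all). By Spearman's rank 0 of the 8 nearest genes were shared, and ACCAATNA, added after seeing the data, was in 5 members where CCAAT was in 10. Since numbers do not pair libraries, the block's lost calls are not read as weaker effects.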
